A study of Mus musculus with 8 samples.

Results

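The unedited control cells of TEC71, an immortalized line of mouse medullary thymic epithelium, were described by which genes gave bright, dim or no signal above background. These cells were hybridized on 3 of the 8 arrays in the series, and all 3 arrays with the control label were used. The control cells had received Cas9n, the nickase form of Cas9, with 1 guide RNA, and kept Gtf2i without the knock-in. The other 5 arrays held 2 clones with the T1211A mutation of Gtf2i and enter only where named at the end. Cells grew as a monolayer in RPMI-1640 with 10% serum, and the labels name no thymocytes or stroma. The sources used here do not say whether the control is 1 clone, how the cells were immortalized, or whether the replicates came from separate cultures. The spread between arrays may therefore be technical.

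Thymic epithelium forms the framework in which T cells mature. In the cortex it presents self-peptides on MHC molecules to select useful T cell receptors, with help from Foxn1, the master transcription factor of the lineage, and Psmb11, a proteasome subunit found in cortical cells. In the medulla, cells with keratins 5 and 14 use Aire and Fezf2 to express genes of other tissues, and NF-kB signals from RANK, CD40 and the lymphotoxin beta receptor mature them. Cultured thymic epithelial lines are known to lose parts of this programme outside the thymus.

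Each array held 56605 probes, and 55.3%, 59.3% and 56.1% of them were well above background on arrays 1, 2 and 3. A level is the log2 of the processed signal minus the 75th percentile of its array, so 0 is that percentile, and a gene is given by its brightest probe. Probes bind with different strength, so levels of different genes are signals and not amounts of RNA. Over 6264 detected genes with several probes, the brightest probe lay above the dimmest by a median of 3.10. The gap was over 3 in 3241 of them. Dimmer probes are given below for some genes only, so a bright level can rest on 1 of several probes. The number of arrays limits precision. Of 22911 genes with a symbol, 14044 (61.3%) were well above background on all 3 arrays through at least 1 probe and are called detected. A further 1213 (5.29%) were above it on 1 or 2 arrays, and 7654 (33.4%) on none. The top 10.0% of genes by mean level, 2291 of 22911 with a level over 3.82, are called bright. The share of each gene list below stands beside 61.3% for detected and 10.0% for bright genes. Protein-coding genes were detected in 65.8% of cases and long non-coding RNAs in 26.8%. For a list of protein-coding genes 65.8% is therefore the closer share. In bulk RNA, few cells with a transcript and little transcript in each cell cannot be told apart.

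**Figure D1:**
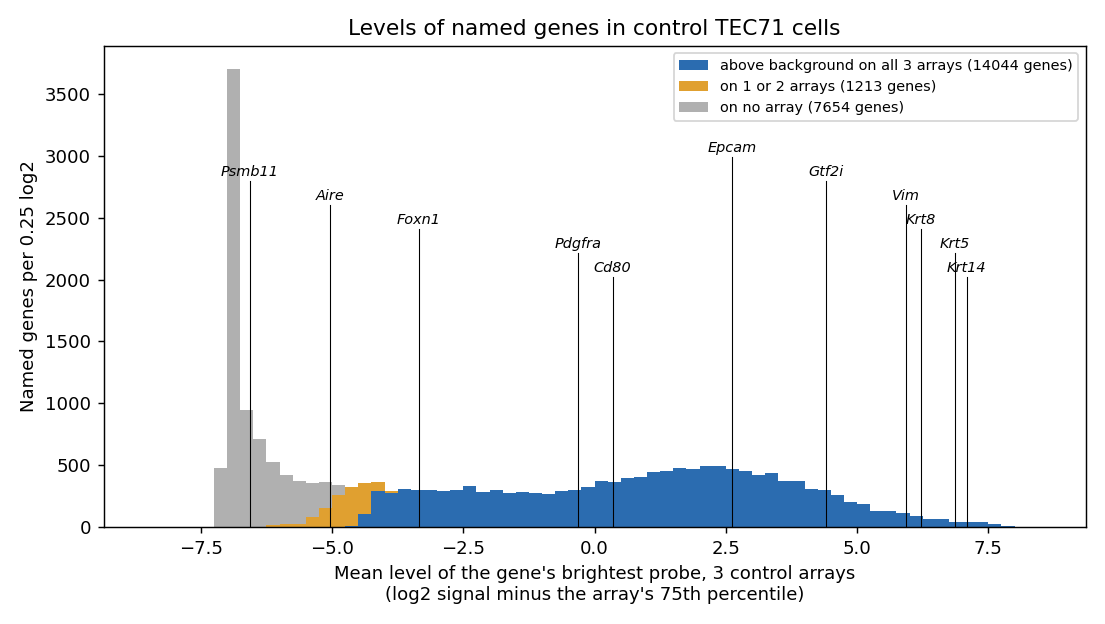
Mean level of the brightest probe (horizontal axis, log2 signal minus the array's 75th percentile) for named genes (vertical axis, genes per 0.25 log2), coloured by the number of control arrays on which the gene was above background. Krt14, Krt5, Krt8 and Vim lie at the bright end between 5.94 and 7.09, Foxn1 lies at -3.35, and Aire and Psmb11 lie in the region of genes on part of the arrays or on none.

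The keratin markers of epithelium were bright, and among markers of thymic epithelium Foxn1 was dim and Psmb11, Aire and Fezf2 were not detected on all arrays. Krt14, a keratin of basal and medullary epithelium, had levels of 7.50, 6.50 and 7.26 on arrays 1, 2 and 3, with a mean of 7.09 ± 0.52 (SD, n = 3), brighter than 99.5% of genes. Krt5, its partner keratin, had levels of 6.84, 6.57 and 7.18 and a mean of 6.86 ± 0.30 (SD, n = 3). Array 2 was the lowest for both keratins, and its value for Krt14 stood apart from the other 2 arrays. Krt8, a keratin of simple epithelium that marks cortical cells in the thymus, had levels of 6.15, 6.33 and 6.15. Epcam, an epithelial adhesion protein, lay at 2.68, 2.54 and 2.64, and Cdh1, the adhesion protein E-cadherin, had a mean of 1.80 ± 0.13 (SD, n = 3). For Krt8 and Epcam the 3 arrays lay close together, and all 6 of the fixed epithelial markers were detected, 4 of them bright.

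Of the 7 fixed markers of thymic epithelium, 4 were detected, 1 was above background on part of the arrays, 2 were on none, and none was bright. Foxn1 was above background on every array, at -3.36, -3.23 and -3.47, which is dim: only 43.9% of genes had a lower level. Psmb11 was not well above background on any array. Aire was above background on array 2 only, at a level of -4.52. Its brightest probe did not pass on array 1, at a near-equal level of -4.54, or on array 3, at -6.05. Fezf2, the second regulator of promiscuous expression, was not well above background on any array. Cd80, a costimulatory ligand of mature medullary cells, was detected at 0.44, 0.48 and 0.11, and its other probes were detected at -1.14 and -2.04. The cortical protease gene Prss16 had a mean of 0.00 ± 0.21 (SD, n = 3). Of the genes that define medullary cells, the keratins Krt5 and Krt14 were thus bright, whereas the regulators Aire and Fezf2 passed on 1 array or on none. Krt5 and Krt14 also mark basal epithelium in general, and Krt8 and Krt18, which mark cortical and simple epithelium, were bright as well, so these keratins do not single out a medullary cell.

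Markers of other lineages were mixed. Vim, the intermediate filament vimentin of mesenchymal and many cultured cells, was bright at 6.27, 5.70 and 5.84, with array 1 the highest. Pdgfra, a growth factor receptor of fibroblasts, was detected near the 75th percentile at -0.43, -0.44 and -0.10. Among the 6 fixed mesenchymal markers, 3 were detected, Col1a1 passed on 2 arrays, and Pdgfrb and Thy1 on none. Of the 3 endothelial markers only Pecam1 was detected, at -2.08 ± 0.23 (SD, n = 3). Of the 5 leukocyte markers 3 were detected, Cd3e and Csf1r among them, Ptprc (the pan-leukocyte protein CD45) passed on array 1 only, and Lyz2 on none. Gtf2i, the gene edited in the rest of the series, was bright on every array at 4.40, 4.46 and 4.37, the closest agreement among these markers. Its other probes were detected at 0.38 and -3.25.

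**Figure D2:**
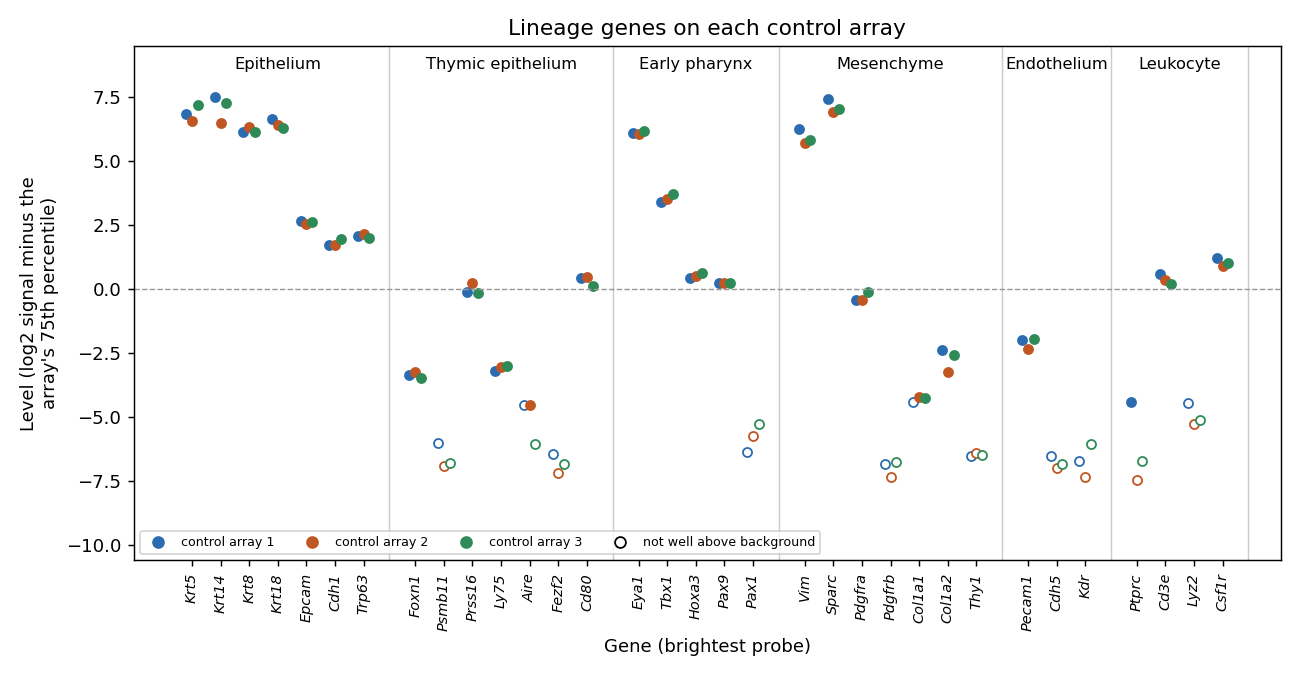
Level on each control array (vertical axis, log2 signal minus the array's 75th percentile) of lineage genes grouped by cell type, with 1 colour per array and open circles where the gene was not well above background. The 4 keratins, Eya1, Vim and Sparc lie above 5 on every array, whereas Psmb11, Fezf2, Pdgfrb, Thy1, Cdh5 and Kdr are open on all 3.

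The sequences before the start sites of 6 marker genes are shown because these genes span the bright, dim and undetected classes. Each is the 120 bases before the outermost annotated start of the gene, 5′ to 3′ on the strand of the gene, from RefSeq on GRCm38.p6. Capitals mark CG dinucleotides and the letters TATAAA. Krt5 is at chr15:101712906-101713025 (minus strand), Vim at chr2:13574191-13574310 (plus), Gtf2i at chr5:134314761-134314880 (minus), Foxn1 at chr11:78386609-78386728 (minus), Psmb11 at chr14:54625190-54625309 (plus) and Aire at chr10:78043611-78043730 (minus).
Krt5: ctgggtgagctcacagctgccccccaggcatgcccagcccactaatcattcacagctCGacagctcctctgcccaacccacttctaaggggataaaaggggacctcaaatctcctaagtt
Vim: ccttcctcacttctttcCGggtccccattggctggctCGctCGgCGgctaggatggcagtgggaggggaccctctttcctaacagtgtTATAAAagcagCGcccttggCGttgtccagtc
Gtf2i: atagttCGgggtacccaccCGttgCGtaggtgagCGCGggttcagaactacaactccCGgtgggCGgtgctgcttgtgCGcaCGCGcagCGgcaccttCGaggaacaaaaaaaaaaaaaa
Foxn1: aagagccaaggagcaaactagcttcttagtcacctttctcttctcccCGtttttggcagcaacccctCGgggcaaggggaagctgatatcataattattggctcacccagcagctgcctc
Psmb11: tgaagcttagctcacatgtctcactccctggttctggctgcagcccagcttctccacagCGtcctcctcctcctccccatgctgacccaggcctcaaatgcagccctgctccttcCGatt
Aire: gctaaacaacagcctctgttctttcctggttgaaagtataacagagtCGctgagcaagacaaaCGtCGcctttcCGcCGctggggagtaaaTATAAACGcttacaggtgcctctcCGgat

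CG content of the windows varied among the bright genes of these 6. The window of 250 bases before to 50 after the start had a ratio of observed to expected CG dinucleotides of 0.251 in Krt5, 0.421 in Vim and 1.03 in Gtf2i, all bright, 0.272 in Foxn1, which was dim, 0.166 in Psmb11, which was not detected, and 0.697 in Aire, which passed on 1 array. Over all 16031 measured protein-coding genes with such a window the median was 0.616. It was 0.743 for detected genes (80.8% of which had a window) and 0.810 for bright genes (84.4%). The letters TATAAA on the gene's strand, with the first base 40 to 20 bases before the start, were present in Vim and Aire at 32 and 29 bases. They were in 2.84% of measured genes with a window, in 1.83% of detected and in 1.59% of bright genes, and in 2.21% of all 27025 windows of the same length. Values for detected genes depended on the presence flag. With a more lenient flag, for a signal above 0 and significant, their median ratio was 0.706 and TATAAA was in 2.10%. The match on the other strand was not searched, since the box is read with direction. For genes at background no comparison is given, because 78.8% of them have a window, under the 80% taken as the limit. These genes are still part of all measured genes.

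Of all 54 keratin genes measured 26 (48.1%) were detected, and the bright ones belonged to basal and simple epithelium. Of the 14 listed keratins of basal and simple epithelium, 12 were detected and 7 were bright, against 61.3% and 10.0% of all named genes. Besides Krt14, Krt5 and Krt8 these were Krt18, the partner of Krt8, at 6.45 ± 0.17, the stress keratin Krt6a at 5.14 ± 0.15, Krt17 at 4.68 ± 0.10 and Krt7 at 4.36 ± 0.09 (SD, n = 3 each). Krt19, a simple keratin also found in thymic epithelium, was at 2.14, and Krt20 and Krt23 were not well above background on any array. Keratins and envelope genes of cornified layers were detected in 10 of 19 cases (52.6%). Sbsn, the gene of suprabasin in differentiating epidermis, was the only bright one at 4.06, and Sprr1b, an envelope precursor, followed at 2.23. Krt10, a keratin of suprabasal epidermis, was at -0.33, Krt13 passed on 2 arrays, and Krt1, Krt4, Krt77, Ivl, Sprr3, Spink5, Dsg1a and Tgm1 were on none.

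Genes of epithelial junctions and polarity were detected in 38 of 42 cases (90.5%), 6 of them bright. The whole claudin family was detected in 10 of 32 cases (31.2%). Perp, a desmosome protein, reached 5.75 ± 0.25 (SD, n = 3), Pkp1, a desmosomal plaque protein, 4.84, and Lsr, a protein of tricellular junctions, 4.88. The tight junction genes Cldn3 and F11r had levels of 4.62 and 4.01. Rab25, an epithelial trafficking GTPase, was at 3.87 and Ovol2, a transcription factor that maintains epithelium, at 3.47, with another Ovol2 probe at background. The genes outside the detected class were Ehf and Spint1, on 2 arrays each, and Cldn1 and Dsg2, on none. Laminins and basement membrane genes were detected in 16 of 22 cases (72.7%) with 11 bright. The proteoglycan agrin (Agrn, 6.26), the laminin chains Lamb1 (6.25), Lama5 (5.04) and Lamb3 (4.49), and the collagens Col18a1 (5.27), Col17a1 (5.01) and Col7a1 (4.48) were among the bright members. Lama1, Lama2, Lama4, Nid1 and Nid2 were on no array, and Lamc3 on 2. Integrins were detected in 14 of 25 cases (56.0%). Their bright members were Itgb1 at 6.34, Itga6 at 5.66, Itgb4 at 4.85, Itgb7 at 4.79, Itga3 at 4.64, Itgav at 4.27 and Itgb5 at 4.15. Itga6 and Itgb4 encode the pair that binds laminin in hemidesmosomes.

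Several genes of the early pharynx, from which the thymus grows, had clear signal on every array. Eya1, a transcriptional coactivator needed for the thymus primordium, had levels of 6.08, 6.07 and 6.18 and a mean of 6.11 ± 0.06 (SD, n = 3), brighter than 98.5% of genes. Tbx1, a T-box factor of the pharyngeal pouches, was at 3.40, 3.51 and 3.73. The 3 arrays lay within 0.33 of each other for both of these genes. Trp63, the p63 factor of stratified epithelium and thymic progenitors, was at 2.07, and Six4 at 1.18, with another Six4 probe at background. Hoxa3 and Pax9, both needed for the third pouch, were at 0.52 and 0.25. Gcm2, the parathyroid regulator, was at -2.69. Pax1, Isl1 and Tlx1 were not well above background on any array, and Foxe1 and Nkx2-5 passed on 1 array each. In all, 11 of 16 genes of the list (68.8%) were detected, 2 of them bright.

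Genes of the cortical list were detected in 11 of 17 cases (64.7%), with 1 bright. That share is near the 61.3% of all named genes and the 65.8% of protein-coding genes. Ctsl, a lysosomal protease that processes self-peptides in the cortex and is widely expressed, was at 6.64 ± 0.19 (SD, n = 3). Pltp, a phospholipid transfer protein, was at 2.56. Kitl and Il7, ligands that support thymocyte progenitors, were at -0.27 and -1.91. Ccl25, a chemokine that draws progenitors into the thymus, was at -0.80 with another probe at background. Fgfr2, the receptor for keratinocyte growth factor, was at -2.44 with a probe at background, and Ly75, an endocytic receptor of cortical epithelium, was at -3.08. Dll4, the Notch ligand that commits progenitors to the T lineage, was not well above background on any array, nor were Cxcl12, Cd83, Igf1 and Enpep.

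Genes of the medullary list were detected in 23 of 38 cases (60.5%), with 8 bright. That share stands beside 61.3% of all genes and 65.8% of protein-coding genes. The bright members other than Krt14 and Krt5 had several roles. Pdpn, a glycoprotein of junctional thymic epithelium, was at 5.05 ± 0.33, Ly6a, also called Sca-1, at 4.72 ± 0.21, and Chd4, a chromatin remodeller, at 4.02 ± 0.11 (SD, n = 3 each). Ltbr, the lymphotoxin beta receptor, had levels of 4.89, 4.65 and 4.86. Of the other receptors that mature medullary cells, Tnfrsf11a (RANK) was at -0.37 with another probe at background, and Cd40 was not well above background on any array. Relb and Map3k14, the factor and kinase of the alternative NF-kB pathway downstream of them, were at 3.13 and 1.44. Cd86, Tnfrsf11b (osteoprotegerin), Ccl19, Ccl21a, Ccl22 and Ctss were on no array. H2-Ab1 and Ciita passed on 2 arrays and Ccl17 on 1.

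Among genes of other tissues and of the rarer thymic cell types, most members were not detected. Of 33 tissue-restricted antigens 8 (24.2%) were detected, beside 61.3% of all named genes, and none was bright. Mbp (myelin), Rbp3 (photoreceptor), Apoa2 (liver) and Tyr (melanocyte) were at 2.69, 2.28, 1.04 and -1.69, and all of these but Rbp3 had another probe at background. Ins1 and Tg passed on 2 arrays, Alb and Gh on 1, and Ins2, Csn2, Csn1s1, Apoa1, Crp, Mucl2, Tff3 and Gad1 on none. Of 29 genes of thymic tuft cells and other mimetic cells, 11 (37.9%) were detected. Ptgs1, a prostaglandin synthase of tuft cells and many others, was the only bright one at 5.08, 5.03 and 5.04. Pou2f3, the tuft cell regulator, was at -3.54 ± 0.44 (SD, n = 3), and Trpm5, Il25, Gfi1b, Lrmp, Gng13, Il17rb, Alox5 and Gnb3 were on no array. Markers of neural, muscle, liver, fat and germ cells were detected in 9 of 24 cases (37.5%), among them Snap25 at 2.28 (with another probe at background) and Tubb3 at 1.14. Myod1, Myf5 and Nefl were on no array.

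**Figure D3:**
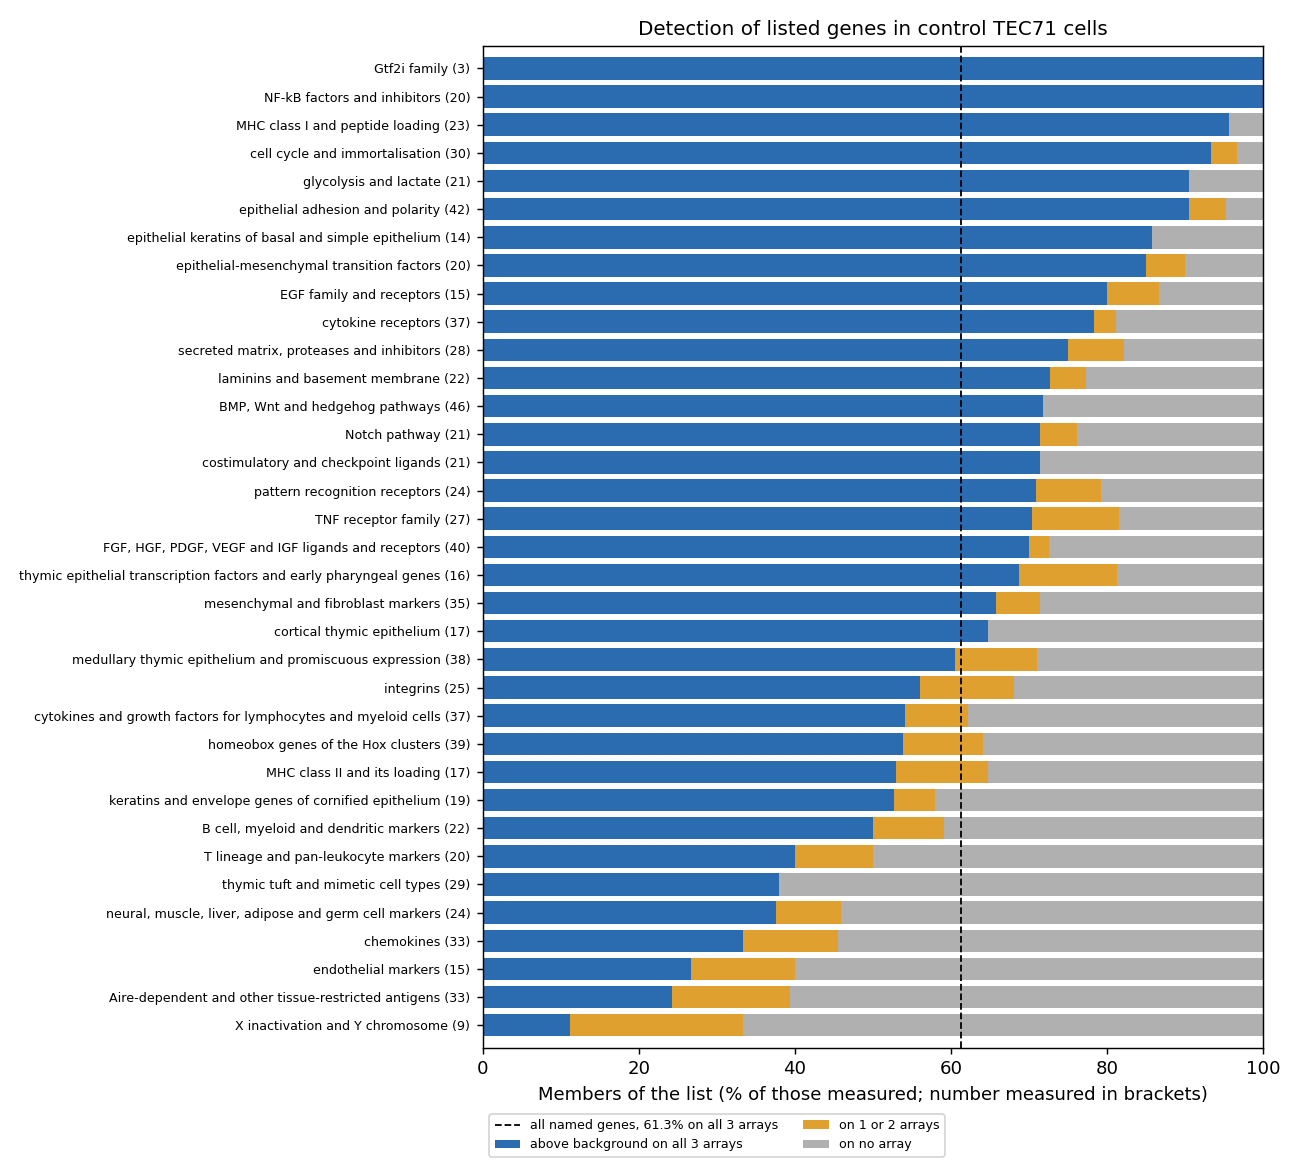
Share of the measured members of each of the 35 gene lists (horizontal axis, percent; number measured in brackets) that were above background on all 3 control arrays, on 1 or 2, or on none. The dashed line marks the 61.3% of all named genes detected; the NF-kB list reaches 100% and the list of X inactivation and Y-linked genes 11.1%.

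Large gene families of other tissues give a background against which dim detection can be read, although these families differed. Of 1080 olfactory receptor genes 195 (18.1%) were detected, 162 of them below a level of -2, with a median level of -3.34 for those detected and a highest of 2.47. Of 262 vomeronasal receptors 26 (9.92%) were detected, and of 58 defensins 4 (6.90%). No gene of these 3 families was bright. The keratin-associated proteins went the other way, with 23 of 53 genes (43.4%) detected and 2 bright. Their highest level was 6.11, and the 90th percentile of those detected was 3.08. Foxn1 at -3.35 and Ly75 at -3.08 lie close to the median of the detected olfactory receptors. The 90th percentile of detected olfactory receptors was -1.27. Eya1 at 6.11 and Cd80 at 0.34 were above it, although another Cd80 probe, at -2.04, was below it. Pecam1 at -2.08, Il7 at -1.91, Cd74 at -2.59, Col1a2 at -2.73, Gcm2 at -2.69, Fgfr2 at -2.44 and Pou2f3 at -3.54 were below -1.27.

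Mesenchymal and fibroblast genes were detected in 23 of 35 cases (65.7%), with 5 bright. That share is near the 61.3% of all named genes and the 65.8% of protein-coding genes. Sparc, a matrix glycoprotein, had levels of 7.41, 6.91 and 7.03, with array 1 the highest. Besides Vim, the smooth muscle actin gene Acta2 was at 5.15 ± 0.16 (SD, n = 3), with another probe at background. Fn1, fibronectin, was at 4.96. Cd34 was at 3.58, the matrix phosphoprotein gene Spp1 at 3.13 and Prrx1, a limb and craniofacial mesenchyme factor, at 2.94. The fibrillar collagen gene Col1a2 was at -2.73 ± 0.45 (SD, n = 3), and Col3a1, Dcn, Lum, Fap, Mgp and Tcf21 were on no array, as were Pdgfrb and Thy1. Cdh2, N-cadherin, passed on 2 arrays. Genes of epithelial-mesenchymal transition were detected in 17 of 20 cases (85.0%). Hmga2, a chromatin protein of embryonic and transformed cells, was at 5.23 ± 0.07, Snai2, the repressor SLUG that basal epithelium also expresses, at 4.33 ± 0.07, and Tgfbr2 at 4.31 ± 0.08 (SD, n = 3 each). Inhba was at 3.19 and Twist2 at 1.85. Zeb1, a repressor of E-cadherin, passed on 1 array, and Gsc and Lin28b on none.

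Endothelial markers were detected in 4 of 15 cases (26.7%). Flt1, a VEGF receptor, was bright at 4.17 ± 0.13 (SD, n = 3) and Egfl7 was at 2.60, while Cdh5, Kdr, Tek, Tie1, Vwf, Emcn, Esam and Erg were not well above background on any array. T lineage and pan-leukocyte markers were detected in 8 of 20 cases (40%) with none bright. Cd4, a T cell co-receptor, had levels of 0.78, 0.52 and 0.41, Cd3e, a chain of the T cell receptor complex, 0.60, 0.34 and 0.18, and the T cell kinase gene Lck 0.11, 0.49 and 0.28. These 3 genes lay near the 75th percentile on every array by their brightest probe. The other probe was at -4.87 and passed on 1 array for Cd4, and was at -1.96 for Cd3e and -3.33 for Lck. Ptprc passed on array 1 only, and Cd3g, Cd8a, Zap70, Rag1, Rag2, Cd2, Il7r and Laptm5 on none. Of the B cell, myeloid and dendritic markers 11 of 22 (50%) were detected. Siglech, a lectin of plasmacytoid dendritic cells, was bright at 5.54, 4.35 and 4.18, with array 1 well above the others and another probe at background. Itgam, Cd14 and Csf1r were at 2.42, 1.13 and 1.05, and Cd79b, Ms4a1, Lyz2, Itgax, Adgre1, Fcgr3, Tyrobp and Cx3cr1 were on no array. The part of other cell types in these signals was not tested.

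Chemokines fell into a few bright genes and many undetected ones. Of 33, 11 (33.3%) were detected, 2 of them bright, 4 passed on part of the arrays and 18 on none. Cxcl5, a ligand that draws neutrophils, had levels of 6.72, 6.43 and 6.53 and was brighter than 99.1% of genes. Cxcl1, of the same class, had levels of 5.47, 5.37 and 5.29. Ccl2, which draws monocytes, had 3.25, 3.20 and 3.29. The arrays lay close together for all of these. Cxcl16 was at 3.45 and Ppbp at 2.97. The ligands of thymic T cell traffic Ccl25, Ccl19, Ccl21a and Cxcl12 are given above. Ccl20, the ligand of CCR6, was at -0.27, and Ccl3, Ccl4, Ccl8, Ccl11 and Ccl24 were on no array.

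Cytokines and growth factors for blood cells were detected in 20 of 37 cases (54.1%). Mif, a widely expressed inflammatory factor, was at 7.12 ± 0.06 (SD, n = 3), Hmgb1, a chromatin protein that acts as an alarm signal when released, at 6.08 and Csf1, the growth factor of macrophages, at 5.26 ± 0.07 (SD, n = 3). Il1a, an epithelial alarm cytokine, was at 1.99. Tslp passed on 2 arrays and Il1rn and Ltb on 1. Il15, Il6, Osm, Il1b, Il33, Il12a and Tnfsf11, which encodes RANK ligand, were not well above background on any array. Cytokine receptors were detected in 29 of 37 cases (78.4%). Csf3r, the receptor of a granulocyte growth factor, was the brightest at 6.13, 5.77 and 5.97. Il17rc was at 4.12, Il15ra at 4.11, Crlf2, a chain of the TSLP receptor, at 3.48 and Ifnar2 at 3.25. Il1r2, Il2ra, Lifr, Il18r1, Il20ra, Il31ra and Csf2ra were on no array.

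All 20 NF-kB factors and inhibitors were detected, 3 of them bright. Rela, the main activating subunit, was at 5.82 ± 0.13 (SD, n = 3), the inhibitor gene Nfkbia at 3.96 and the kinase gene Chuk at 3.83. Traf2 and Traf3, adaptors that restrain the alternative pathway, were at 3.78 and 3.56, and Nfkb2 was at 3.14 ± 0.68 (SD, n = 3), a wider spread than its partner Relb at 3.13 ± 0.13 (SD, n = 3). TNF receptors were detected in 19 of 27 cases (70.4%). Tnfrsf12a, the receptor of TWEAK, led at 6.21 ± 0.37 (SD, n = 3), Tnfrsf23 was at 4.21 and Tnfrsf1a, the main TNF receptor of most cells, at 3.79. Tnfrsf8, Tnfrsf17 and Edar were on no array. Sensors of microbes were detected in 17 of 24 cases (70.8%) with none bright. The RNA sensor gene Ddx58 was at 2.65, the DNA sensor gene Cgas at 2.57 and Tlr9 at 2.23, and Tlr8, Tlr11, Tlr12, Nlrc4 and Aim2 were on no array.

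MHC class I presents peptides from inside the cell, and class II peptides from the endosomal route. Of 23 genes of class I and peptide loading 22 (95.7%) were detected and 9 were bright, and the remaining gene was Psmb11. B2m, the light chain of class I, was at 5.24 ± 0.10, the heavy chain genes H2-Q4 and H2-K1 at 5.39 ± 0.09 and 5.04 ± 0.40, and Tapbp, the loading factor tapasin, at 4.27 ± 0.19 (SD, n = 3 each). Of the proteasome genes, Psmb6 was at 5.84, Psmb5 at 4.84 and Psmb10, of the immunoproteasome, at 4.40. Of 17 genes of class II and its loading 9 (52.9%) were detected, and the only bright one was the protease gene Ctsl. Cd74, the invariant chain, was at -2.59 ± 0.18 and H2-DMa, a loading chaperone, at -1.31 ± 0.26 (SD, n = 3 each). H2-Ab1, a class II chain, and Ciita, the class II transactivator, passed on 2 arrays, and H2-Aa, H2-Eb1, H2-DMb2, H2-Oa and H2-Ob on none. Costimulatory and checkpoint ligands were detected in 15 of 21 cases (71.4%). Nectin2 was bright at 4.35, Pvr was at 3.46 and Cd276 at 2.66. Cd274, the ligand PD-L1, was at -1.09. Cd86, Pdcd1lg2, Vtcn1, Vsir and Tnfsf4 were on no array.

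Growth factor signalling was read from 4 lists. Of 15 EGF family genes 12 (80.0%) were detected. The ligand gene Nrg1 was at 4.38, Lrig1, a brake on EGF receptors, at 4.08, and the receptor genes Erbb2 and Egfr were at 3.93 and 3.18, with Erbb3 on 2 arrays and Erbb4 on none. Of 40 genes in a list of FGF, HGF, PDGF, VEGF and IGF genes and other receptor kinases 28 (70.0%) were detected. Of the HGF, VEGF and PDGF groups, Met, the HGF receptor, was at 5.06, the VEGF co-receptors Nrp2 and Nrp1 at 5.92 and 5.13 and the ligand gene Pdgfa at 4.84. The list also holds Axl, a receptor tyrosine kinase for GAS6, at 7.19 ± 0.41 (SD, n = 3) and the ephrin receptor gene Epha2 at 5.45. Fgfr1, Hgf, Kit, Fgf2 and Fgf10 were not well above background on any array. Of 21 Notch pathway genes 15 (71.4%) were detected with none bright. The ligand genes Jag1, Jag2 and Dll1 were at 2.72, 2.08 and 0.57, the receptor genes Notch2 and Notch1 at 2.90 and 2.33, and Rbpj, their DNA-binding partner, at 3.09. Dll3, Hes5, Hey2 and Heyl were on no array. Of 46 BMP, Wnt and hedgehog genes 33 (71.7%) were detected. Smo, the hedgehog signal transducer, was at 5.21 and Wnt10a at 4.54, and these were the bright ones. Bmpr1a was at 3.10 and Wnt4 at 2.00, whereas Bmp2, Bmp7, Grem1, Wnt3, Wnt6, Wnt10b, Axin2 and Lgr5 were on no array.

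Cell cycle and immortalisation genes were detected in 28 of 30 cases (93.3%), 11 of them bright. Mdm2, the ubiquitin ligase of p53 and a p53 target, was at 7.16 ± 0.61 (SD, n = 3), and its spread was wider than for most bright genes. The cyclin genes Ccnd2 and Ccnd1 were at 6.57 and 6.0, their kinase gene Cdk4 at 5.56, and the mitotic kinase gene Plk1 at 5.07. Myc was at 5.03 and Pcna, the replication clamp, at 5.03. Top2a was at 4.90 and Mki67, the proliferation marker Ki-67, at 4.46. Cdkn2a, the locus of p16 and p19ARF, was at 3.67, Trp53 at 2.56 and the telomerase gene Tert at -1.47. Cdkn1c passed on 2 arrays, and Mycn on none. Glycolysis genes were detected in 19 of 21 cases (90.5%), 12 of them bright. Gapdh was at 7.48, Ldha at 7.08, Aldoa at 6.83, Pgk1 at 6.76, Eno1 at 6.70, Pkm at 6.69, Gpi1 at 6.36 and Pgam1 at 6.21, and Slc2a3 and Pklr were on no array. Secreted matrix, protease and inhibitor genes were detected in 21 of 28 cases (75%). After Sparc, the inhibitor genes Timp2, Slpi and Timp1 were at 6.78, 6.10 and 5.63 and complement C3 at 5.05, and Mmp2, Mmp3, Mmp7, Mmp9 and Mmp13 were on no array. The 3 genes of the Gtf2i family were all detected, Gtf2ird1 at 3.82 and Gtf2ird2 at 1.47.

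The Hox genes, which give cells their position along the body axis, were detected in 21 of 39 cases (53.8%) with none bright. Hoxa7 was the highest at 2.61 ± 0.38 (SD, n = 3), with Hoxd8 at 1.91, Hoxb7 at 1.54, Hoxb9 at 0.87, Hoxb4 at 0.75, Hoxa3 at 0.52 and Hoxb2 at 0.42. In the a and b clusters Hoxa11, Hoxa13 and Hoxb1 were on no array, and Hoxb13 passed on 2. In the c cluster Hoxc9 alone was detected on all 3 arrays, Hoxc13 passed on 2 and Hoxc6 on 1, and Hoxc4, Hoxc5 and Hoxc8 on none. Of the listed X inactivation and Y-linked genes 1 of 9 (11.1%) was detected. Xist, Ddx3y, Eif2s3y, Kdm5d, Uty and Zfy2 were on no array, Usp9y and Zfy1 on 1, and Sry on all 3 at -3.78 ± 0.13 (SD, n = 3). Of 22 named genes on the Y chromosome 2 were detected, and of 879 on the X chromosome 449.

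**Figure D4:**
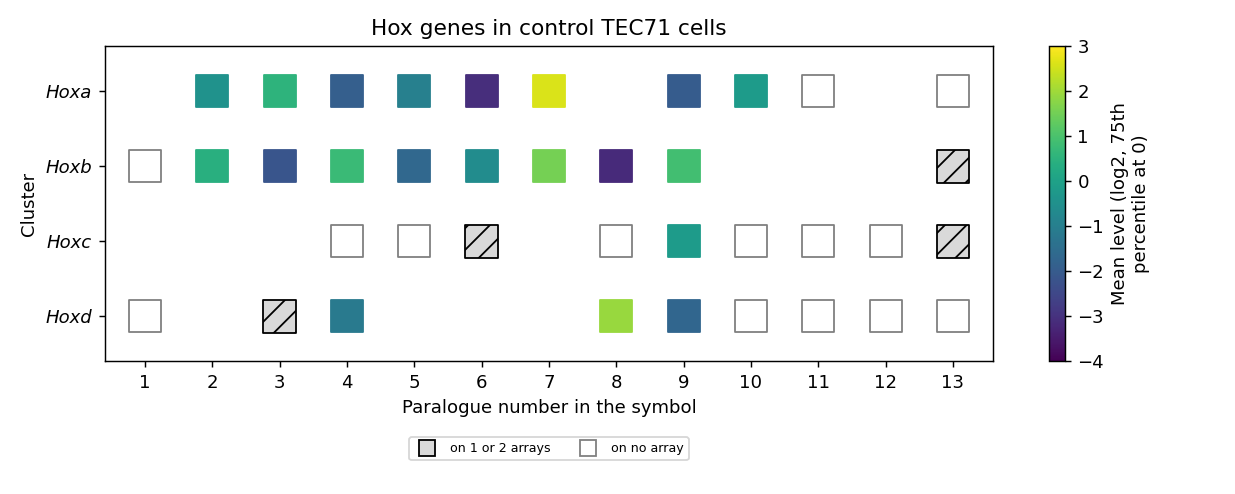
Hox genes by cluster (rows) and paralogue number in the symbol (columns), coloured by mean level (log2 signal minus the array's 75th percentile) where detected on all 3 control arrays; a place without a square is not shown or holds no listed gene. Most coloured squares lie in the a and b clusters, with the highest at Hoxa7 (2.61), while in the c cluster Hoxc9 is the only coloured square.

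The 20 brightest named genes were mostly ribosomal protein and histone genes. H2ac12, a replication-dependent histone gene, was the highest at 8.10 ± 0.32 (SD, n = 3), with H2ac1, H2ac11 and H2ac10 also in the set. The probes of near-identical histone genes can share transcripts, so the members of this family cannot be told apart with certainty. Ribosomal proteins in the set included Rps16, Rpl29, Rpl41, Rps18, Rpl13, Rplp2, Rpl10, Rpl3, Rpl12 and Rpl28. The other genes were Eef1g, a translation elongation factor, Actb at 7.79, Grn, the growth factor progranulin, at 7.70, S100a6, a calcium-binding protein of proliferating cells, at 7.68 and Tuba1b. Of 85 cytosolic ribosomal protein genes 81 were detected and 79 were bright. The 4 not detected, Rpl10l, Rpl39l, Rpl3l and Rps4l, are related copies, named here after their values were seen. All 20 were highest on array 1, by a median of 0.57 over the mean of the other arrays. On array 2 the median difference of these 20 from the other arrays was -0.49. Over all 2291 bright genes the median difference was 0.046 on array 1 and -0.055 on array 2.

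Spread between the control arrays was small for most genes. Over the 14044 detected genes the median SD was 0.126 and the 90th percentile 0.297. The median SD was 0.253 below a level of -4 and 0.110 above 4. A range over 1 occurred in 121 genes (0.862%), and 84 of these were highest on array 1. The largest ranges were in Iqsec3, with levels of 1.68, 2.48 and 0.61, and Anp32a, with 1.75, 2.06 and 3.48, both with more than 1 probe. Rn28s1, the 28S ribosomal RNA, had 5.18, 4.45 and 3.49, and Cbx8, a Polycomb protein, -0.22, 0.08 and -1.49. H3c11, Pde5a, Rprl2 and Zc3h15 completed the 8 most variable, and no single array was highest in all of them. Genes that passed on part of the arrays did so on array 2 in 1012 of 1213 cases, on array 3 in 465 and on array 1 in 282. Array 2 also had the largest share of probes above background.

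**Figure D5:**
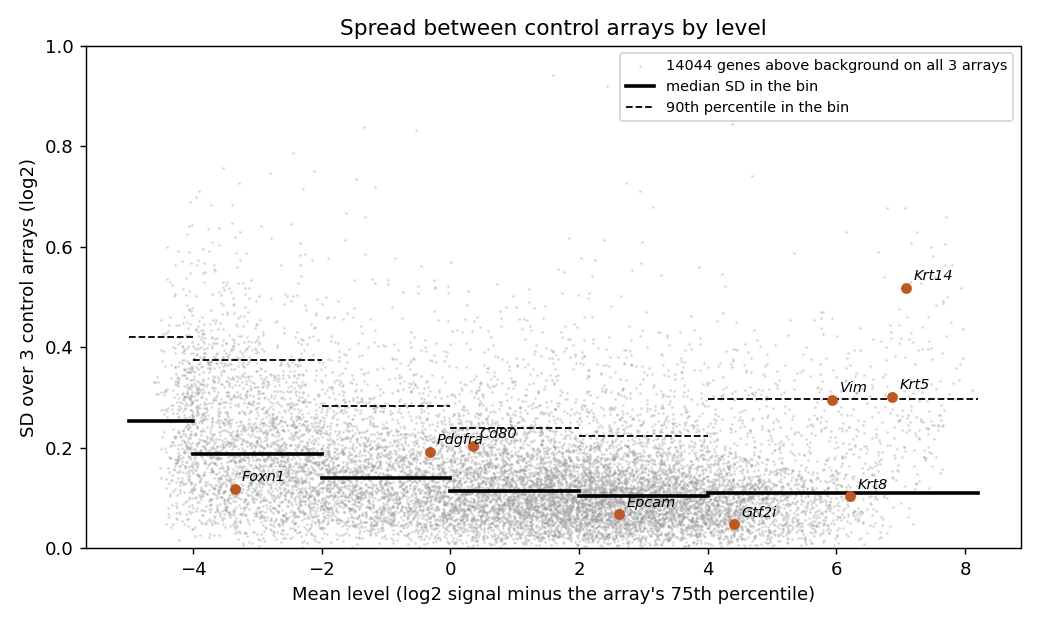
SD over the 3 control arrays (vertical axis, log2) against mean level (horizontal axis, log2 signal minus the array's 75th percentile) for the 14044 detected genes, with the median and the 90th percentile per bin of level. Krt14 at 0.52 lies above the 90th percentile of its bin, and Gtf2i at 0.05, Epcam at 0.07 and Foxn1 at 0.12 lie below the median of theirs.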

How the data were processed

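Total RNA (200 ng) was labelled and hybridized to 1-colour Agilent SurePrint G3 arrays, per the labels. Each deposited value is the linear, background-corrected intensity of a spot. The submitters' processing notes name Agilent Feature Extraction 11.5.11 as the software. Replicates were not pooled. Per the file headers the build is an older one, so no coordinates of probes are given.

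Control spots and spots flagged as outliers (114 to 170 per control array) were left out. The 75th percentile of log2 intensity was subtracted within each array, and spots with the same probe were averaged. The 75th percentile of the signal was 268, 377 and 286 on arrays 1, 2 and 3, and no spot was saturated. Presence is the deposited flag for well above background, on more than 50% of a probe's spots. Accessions matched to RefSeq names of GRCm38.p6 named 32994 probes, and 23611 stayed unnamed and were left out of gene counts. Of 7899 genes with several probes, 1216 had 1 probe on all 3 arrays and another on none. No test was made, since a single group is described; shares of lists are set beside the share of all named genes.

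The text names the 10 markers and Gtf2i, the 20 brightest genes, the 8 with the largest range, and, per list, up to 8 detected in order of level, up to 8 at background in list order and those on part of the arrays. Genes without a standard symbol are not named. A few other genes covered by the rule are left out here. Cdh1, Csf1r, Col1a2, Lyz2 and Fezf2 come from the fixed markers. Ly75, Krt19, Tnfrsf11a, Map3k14, Relb, Pou2f3, Gcm2, Dll1, Bmpr1a, Wnt4, Mki67, Cdkn2a, Trp53 and Tert are named for their known role where the rule does not give them, after their values were seen. The lists and members were chosen with earlier results of these data known. Python 3.11.15, pandas 2.3.3, R 4.3.3 and limma 3.58.1 (alternatives) were used, and the scripts were tested on simulated data. Alternatives covered scaling, normalization, background correction, the presence flag, the arrays required, the probe summary, outlier spots and each array left out.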

Additional observations from a re-analysis of the deposited data

Results flagged for a closer look

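Of 239 listed genes at background on all 3 control arrays, 7 (2.93%) were well above background on all 5 arrays of the Gtf2i knock-in clones, which the description of the control cells does not use. Of all 7654 named genes at background on the controls, 119 (1.55%) were. The mean level on those arrays was -0.02 for Grem1, a BMP antagonist, -1.81 for Csf2ra, a cytokine receptor chain, and -2.0 for the ligand gene Wnt6. It was -2.02 for Cxcl10, an interferon-induced chemokine, -2.08 for Xist, the RNA of X inactivation, -3.18 for Spink5, a protease inhibitor of epidermis, and -3.27 for Il18r1, the receptor of interleukin 18. These differences were not tested here, and no fold is given, since the control value is a background reading.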

How the results depend on the processing

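Of 37 counts (detected genes, genes at background and the 35 lists), all stayed within 1.5 times under 2 of 3 arrays required, the brightest probe alone, outlier spots kept and each array left out. The count of genes at background could not change with 2 of 3 arrays required, since it holds genes above background on no array. Only 4 detected genes owed that class to a probe other than their brightest, so the brightest probe alone could change detected counts little. Outlier spots were also few, at 114 to 170 per control array, so keeping them could change little. With the more lenient flag for a signal above 0 and significant, 31 did and 6 moved. Genes at background fell from 7654 to 3256, and detected members rose from 8 to 16 in tissue-restricted antigens, 4 to 8 in endothelial markers, 11 to 17 in chemokines, 9 to 14 in MHC class II genes and 1 to 2 in sex chromosome genes. Lists that stayed within 1.5 times also gained members. Detected members rose from 23 to 31 in the medullary list and from 23 to 29 in mesenchymal genes. They rose from 20 to 27 in cytokines and from 21 to 28 in Hox genes. The NF-kB and MHC class I lists stayed at 20 and 22. Absence on any list that gained members is therefore a statement about the stricter flag. Levels of the 855 named genes shifted together by 3.78 with median scaling and by -2.19 with the 75th percentile of detected probes. Normexp correction moved 710 of them beyond their SD, by -0.49 to 4.47 with a median of 0.40, and the mean of all probes moved 264 genes, by -7.40 at most. A gene with 1 probe cannot move with the mean of all probes, so the genes that stayed include all of those. Quantile normalization and outlier spots kept moved no gene beyond its own SD. Leaving out 1 array moved single levels by -1.02 to 0.82; with 3 arrays such a shift cannot exceed the SD. Naming by the gene name in the files was not run, because the columns used here hold no gene name. Array signal near background limits the dim genes: the lowest level called above background was -4.59, -5.26 and -5.08 on arrays 1, 2 and 3. No paired analysis was possible because no result comes from a test.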
